A study of Mus musculus with 12 samples.

Results

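The DNA replication machinery was followed as 37 mRNAs, which were picked by gene symbol out of the 43432 genes listed in each of 12 expression tables. They comprised the 6 subunits of the MCM helicase, the 6 subunits of the origin recognition complex, the 2 licensing factors Cdc6 and Cdt1, 6 factors that activate the helicase, the sliding clamp with its 5-subunit loader, 6 subunits of the replicative polymerases and primase, 2 enzymes that process Okazaki fragments, 2 subunits of the single-strand DNA binding protein RPA, and Rrm1. Neural stem cells (NSCs) had been taken from the brain's subventricular zone in wild-type male C57BL/6 mice aged 6 to 8 weeks, and were grown as a monolayer with 20 ng/ml EGF and 20 ng/ml bFGF and kept for 4 days, with fresh medium on day 2, in 1.5 µM (LF, low), 10 µM (MF, medium) or 80 µM (HF, high) folic acid. From each dose, poly(A) mRNA of the whole cell (total mRNA) and of the pooled heavy fractions of a sucrose gradient (polysome mRNA, the transcripts that carried several ribosomes) was sequenced, with 2 libraries for each of the 6 combinations. The submitters call these biological duplicates, and nothing says whether they came from separate animals, so the p-values measure only the spread between the libraries.

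Replication begins at origins that are marked by the origin recognition complex, where Cdc6 and Cdt1 load the ring-shaped MCM helicase before S phase. The helicase is switched on by Cdc45 and the GINS complex with the help of Mcm10, after which polymerase alpha with primase starts each strand, and the clamp PCNA, placed by replication factor C (RFC), tethers the polymerases delta and epsilon. Fen1 and the ligase Lig1 join the lagging-strand fragments, RPA covers exposed single strands, and Rrm1 is the large subunit of the enzyme that makes deoxynucleotides. Folate carries the methyl group for thymidylate, a DNA building block, and dividing stem cells of the adult brain need it for S phase. Many of these genes are known targets of the E2F transcription factors, which switch on S-phase genes.

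The start sites of the members were searched for E2F words because these are the sequences through which the genes are known to be switched on together. RefSeq promoters of 300 bases, from 250 bases before to 50 bases after the start site on GRCm38.p6, were at hand for 30 of the 37 members. The words searched on both strands were TTTCGCGC, TTTGGCGC, TTTCCCGC and TTTGCCGC, which can overlap each other when they lie on opposite strands. At least 1 of them was found in 13 of the 30 members (Mcm3, Mcm5, Mcm6, Mcm7, Orc1, Orc3, Cdc6, Cdt1, Gins3, Rfc3, Pola1, Pold1 and Lig1), or in 13 of 37 member promoters (35.1%), since some genes have more than 1 start. Among all 32851 promoters of this length in the table, 2.26% held such a word. The CCAAT box, which was also searched on both strands, was found in 59.5% of the member promoters and in 37.4% of all promoters. The following 4 stretches of 60 bases lie outside the annotated gene, and the capitals mark E2F words. In Mcm5 the words TTTCGCGC and TTTGGCGC (the latter on the other strand) share bases, and the lower-case bases of the others are the flanks.
Mcm6 (chr1:128359719-128359778, minus strand): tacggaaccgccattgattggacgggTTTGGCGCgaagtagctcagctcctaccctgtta
Mcm5 (chr8:75109334-75109393, plus strand): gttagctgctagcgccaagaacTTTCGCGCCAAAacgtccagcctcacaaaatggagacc
Orc3 (chr4:34614950-34615009, minus strand): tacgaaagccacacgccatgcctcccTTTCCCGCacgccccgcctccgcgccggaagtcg
Pola1 (chrX:93632260-93632319, minus strand): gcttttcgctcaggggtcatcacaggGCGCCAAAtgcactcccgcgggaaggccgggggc
In 4 members whose polysome values are described in detail, the word lay at or just after the start site, and 30 bases around it are given.
Cdt1 (chr8:122568035-122568064, plus strand): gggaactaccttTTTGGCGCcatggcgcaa
Rfc3 (chr5:151651190-151651219, minus strand): cTTTCGCGCtcGCGGGAAAactctactgtc
Pold1 (chr7:44548766-44548795, minus strand): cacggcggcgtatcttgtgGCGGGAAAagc
Lig1 (chr7:13278841-13278870, plus strand): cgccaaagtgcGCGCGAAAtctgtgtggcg
In Rfc3 both TTTCGCGC and, on the other strand, TTTCCCGC lay within these bases. A word is a match of letters only. The 7 members Mcm4, Gins1, Gins2, Gins4, Rfc2, Prim2 and Pole had no entry in the table.

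The libraries held 20506797 to 23593252 estimated read counts for total mRNA and 24193468 to 28170296 for polysome mRNA. Replicates of log2 TPM correlated with Pearson's r between 0.986 and 0.997 across genes, and the lowest value belonged to the polysome libraries of LF. There, 14.3% of genes differed over 2-fold between the replicates, against 0.298% to 0.784% in the other 5 groups, and polysome LF replicate 2 had a score of 67.7 on the leading principal component of polysome mRNA while the other 5 had -29.0 to -3.8. For LF polysome mRNA, the members' medians and most of their counts are therefore given with and without this library. Some member values that it moves are given both ways too. The medians of the other gene lists and the correlations with coding length include it. The cells expressed the stem cell genes Nes, at 357 to 469 TPM, and Sox2, at 100 to 115 TPM, in the total libraries. Some markers of other cell types were present too. In total mRNA 5 astrocyte markers summed to 171 to 203 TPM although Gfap reached at most 0.64, 7 neuron markers to 158 to 174 and 7 markers of the oligodendrocyte lineage to 119 to 144. Of these, 3 astrocyte, 2 neuron and 4 oligodendrocyte lineage markers were under 1 TPM in every total library, so the sums came from the remaining genes. The 5 microglia markers summed to 5.03 to 7.39 TPM, with P2ry12 at 1.85 to 2.4 and no count for Cx3cr1 and Aif1 in any library, and the 5 endothelium markers to 1.02 to 1.50, with no count for Cldn5. The stem cell genes among the markers (10 genes) summed to 6750 to 6810 TPM at LF, 7140 to 7520 at MF and 7910 to 8530 at HF in total mRNA, and to 8880 to 8960, 7230 to 7520 and 7310 to 7750 TPM in polysome mRNA. Summed over 8 mural and mesenchymal markers, the level in total mRNA was 400 to 430 TPM at LF, 377 to 398 at MF and 272 to 326 at HF, and in polysome mRNA 477 to 668, 596 to 617 and 791 to 952 TPM, and the part of these shifts in the results on the members was not tested. In bulk libraries such as these, fewer cells of a type and less RNA per cell cannot be told apart.

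The replication mRNAs were well expressed, and their levels in total mRNA differed by nearly 2 orders of magnitude. TPM (a share of all transcripts, corrected for transcript length) is used to compare genes, each as the mean of the 6 total libraries. Pcna, the sliding clamp, stood at the top with 498 ± 16.3 TPM (SD, n = 6), and the lowest was Orc1, the largest subunit of the origin recognition complex, with 6.32 ± 1.19 TPM.

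**Figure D1:**
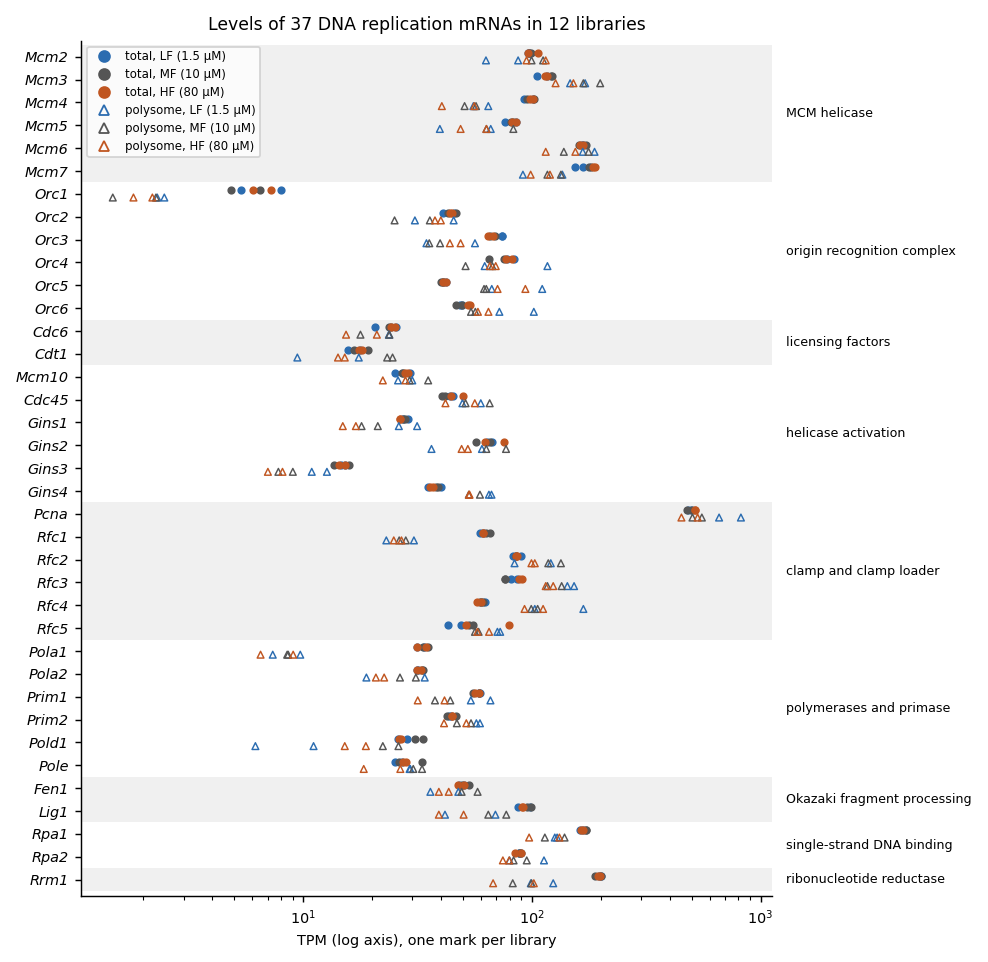
TPM of each of the 37 members (log axis) in every library, total mRNA as filled circles and polysome mRNA as open triangles, coloured by folic acid dose and grouped by role. Pcna lies at about 498 TPM in total mRNA and Orc1 at 6.32, the circles of a gene lie close together at all doses, and the triangles spread more widely.

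The 6 MCM subunits, which form 1 ring, lay within a 2.13-fold range. Mcm7 had 175 TPM, Mcm6 166, Mcm3 116, Mcm2 98.5, Mcm4 98.1 and Mcm5 82.0. Subunits of the origin recognition complex spanned 12.1-fold, with Orc4 at 76.7 TPM, Orc3 at 69.1, Orc6 at 50, Orc2 at 44.1, Orc5 at 41.1 and Orc1 at 6.32. The loading factors Cdc6 and Cdt1 had 23.9 and 17.5 TPM. Among the activators of the helicase, Gins2 had 65.2 TPM, Cdc45 44.2, Gins4 37.5, Mcm10 27.6, Gins1 27.4 and Gins3 14.8. The 4 small subunits of the clamp loader had 85.8 (Rfc2), 83.2 (Rfc3), 59.9 (Rfc4) and 55.2 TPM (Rfc5), and the large subunit Rfc1 had 61.9. Prim1 and Prim2, the catalytic and the large subunit of primase, had 57.9 and 44.4 TPM. Their partners Pola1, the catalytic subunit of polymerase alpha, and Pola2 had 33.3 and 32.4 TPM. Pold1 and Pole, the catalytic subunits of the polymerases delta and epsilon, had 28.6 and 27.9 TPM. Lig1 had 93.6 TPM and the flap endonuclease Fen1 49.9. Rpa1, the DNA-binding subunit of RPA, had 168 TPM and Rpa2 88.1. Rrm1, with 197 TPM, was second only to Pcna in this set. The value of Rfc5 was the least certain of its group, since its TPM was 79.6 in total HF replicate 1 and 51.5 in replicate 2 while its CPM (share of reads, not corrected for length) was 50.8 and 46.8. Reads of Pcna could also be shared with its pseudogenes Pcna-ps1 and Pcna-ps2.

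The first comparison asked whether the amount of folic acid changed the abundance of these mRNAs, and in total mRNA none of the 37 passed the test at any dose. A gene was called changed when its adjusted p from edgeR's quasi-likelihood test was below 0.05 and its fold change above 1.2. For LF against MF, 0 of 37 members were called, beside 1 of 13912 genes tested (0.00719%), and 4 members against 872 genes had an unadjusted p below 0.05. The comparison of HF with MF called 0 members, beside 0.0863% of all genes, and 4 members had an unadjusted p below 0.05. For HF against LF, 0 members were called, beside 1.79% of all genes, and only Mcm7 had an unadjusted p below 0.05. DESeq2 called no member in these 3 comparisons either. The members took 0.389% of all counts in both LF libraries, 0.385% and 0.398% in the MF libraries and 0.389% and 0.399% in the HF libraries, so the groups overlapped.

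The replicates of total mRNA were close enough to bound most of these differences. The 95% interval of 32 of the 37 members lay wholly within a 1.2-fold change in either direction for LF against MF, of 32 for HF against MF and of 33 for HF against LF, and the median log2 change of the members was 0.00, 0.02 and 0.01, beside 0.00 for all genes in each. The widest intervals belonged to Orc1, the least abundant member, for which HF against MF was 0.24 with a 95% interval of -0.05 to 0.53 on the log2 scale. Over the 6 total libraries the coefficient of variation of a member ran from 1.97% (Rfc4) to 11.7% (Orc1) with a median of 3.83%, beside a median of 5.28% for 10982 protein-coding genes.

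The 4 members with the smallest p in each comparison are given as values, none of which passed. For LF against MF, the log2 change was -0.16 ± 0.06 (SE) for Pold1, 0.15 ± 0.06 for Orc4, 0.13 ± 0.06 for Rfc3 and -0.10 ± 0.05 for Mcm3, with adjusted p-values of 0.717 to 0.786. Between HF and MF it was 0.18 ± 0.06 for Rfc3, 0.19 ± 0.07 for Cdc45, -0.16 ± 0.06 for Pold1 and 0.15 ± 0.07 for Orc6, with adjusted p-values of 0.424 to 0.681. For HF against LF, it was 0.10 ± 0.04 for Mcm7, 0.09 ± 0.05 for Mcm3, 0.11 ± 0.06 for Pole and -0.10 ± 0.06 for Orc3, with adjusted p-values of 0.351 to 0.503. The 3 doses share libraries, so these comparisons are not independent of each other. Rfc3 had 53.0 and 50.5 CPM (scaled by TMM over all 12 libraries) at LF, 47.2 and 46.9 at MF and 53.0 and 54.3 at HF. Thus both MF libraries held less Rfc3 than the other 4. Pold1 had 44.7 and 45.7 CPM at LF, 50.3 and 50.1 at MF and 44.3 and 46.0 at HF. Here both MF libraries were above the other 4, by less than 1.2-fold.

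**Figure D2:**
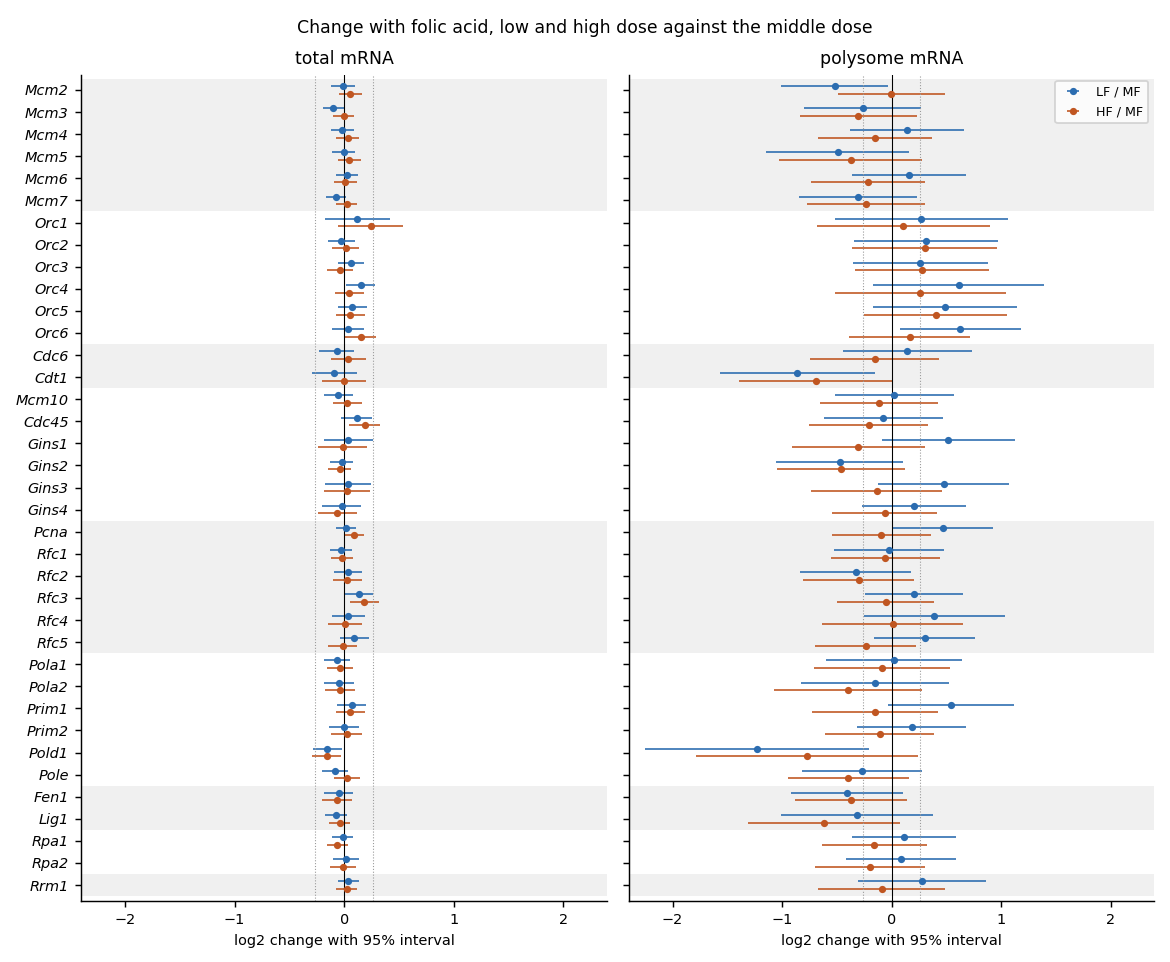
log2 change of the 37 members with its 95% interval, LF against MF (blue) and HF against MF (orange), in total mRNA (left) and polysome mRNA (right); dotted lines mark a 1.2-fold change. In total mRNA 32 of 37 intervals of each comparison stay between the dotted lines, while none does in polysome mRNA, where 30 of 37 points of HF against MF lie below 0.

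In polysome mRNA, again no member was called at any dose, but the intervals were much wider and the values of HF leaned to one side. For LF against MF, 0 of 37 members were called, beside 3 of 13433 genes (0.0223%), with 5 members and 2324 genes at an unadjusted p below 0.05. DESeq2 called 1 member here, Pold1 (log2 change -1.22, adjusted p = 0.0481), among 636 of 12546 genes. Between HF and MF, 0 members and 0 genes were called by edgeR (0.0%), with 0 members and 453 genes at an unadjusted p below 0.05, and DESeq2 called 0 members and 20 genes. For HF against LF, 0 members were called, beside 0.0149% of all genes, with 6 members and 1882 genes at an unadjusted p below 0.05, and DESeq2 called 0 members. The median log2 change of the members was 0.14 for LF against MF, -0.15 for HF against MF and -0.24 for HF against LF, beside 0.01, 0.00 and 0.01 for all genes. The members' median without polysome LF replicate 2 was 0.01 for LF against MF, with 19 values above 0 and 18 below, and -0.18 for HF against LF. For HF against MF, 30 of the 37 members had a value below 0, and the 7 above 0 were the 6 subunits of the origin recognition complex (Orc5 0.40, Orc2 0.30, Orc3 0.28, Orc4 0.26, Orc6 0.17 and Orc1 0.11) and Rfc4 (0.01). The signs of Orc1 and Rfc4 turned when polysome MF replicate 2 (-0.19 and -0.08) or HF replicate 2 (-0.03 and -0.11) was left out. That this complex stood apart from the other members for HF against MF was noticed in these values and not tested. Its 6 subunits were also above 0 for LF against MF, at 0.26 to 0.63 with both LF libraries. For HF against LF they ran from -0.46 to 0.01.

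The share of polysome counts taken by the members was 0.398% and 0.410% at LF, 0.415% and 0.357% at MF and 0.313% and 0.360% at HF. The HF libraries held the lowest value, but HF replicate 2 lay above MF replicate 2, so HF and MF overlapped, while both LF libraries lay above both HF libraries. The spread between replicates was larger than in total mRNA, with a median coefficient of variation of 18.7% over the 6 polysome libraries, from 10.8% (Gins4) to 45.1% (Pold1).

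**Figure D3:**
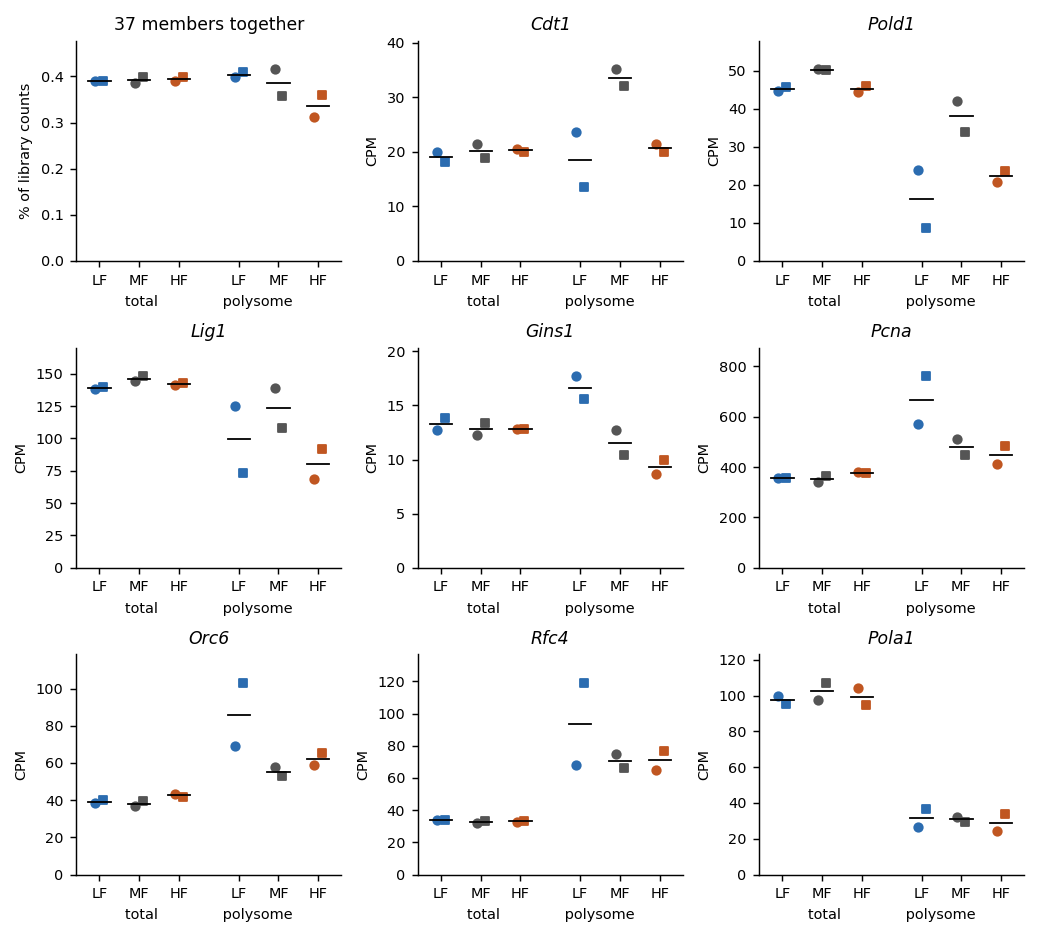
Share of library counts taken by the 37 members (first panel, %) and CPM of 8 members in every library; circles are replicate 1, squares replicate 2, and bars the mean of the 2. Cdt1, Pold1 and Lig1 are lower in both HF than in both MF polysome libraries, Gins1 is higher in both LF than in both HF polysome libraries, and the total libraries of each gene are nearly level.

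Cdt1, which loads the helicase together with Cdc6, had 35.1 and 32.0 CPM in polysomes at MF, 21.4 and 20.0 at HF, and 23.6 and 13.5 at LF. Both MF libraries stood above the other 4. In total mRNA its CPM stayed between 18.1 and 21.5. Its polysome log2 change was -0.69 ± 0.31 for HF against MF (adjusted p = 0.948) and -0.86 ± 0.31 for LF against MF (adjusted p = 0.235, edgeR). Pold1 had 42.1 and 34.0 CPM at MF, 20.7 and 23.7 at HF, and 24.0 and 8.60 at LF, and here too both MF libraries were the highest. Its log2 change was -0.77 ± 0.44 for HF against MF (adjusted p = 0.948) and -1.23 ± 0.44 for LF against MF (adjusted p = 0.238). Without polysome LF replicate 2 the LF against MF values were -0.51 for Cdt1 (adjusted p = 0.107) and -0.66 for Pold1 (adjusted p = 0.0509). Lig1 had 139 and 108 CPM at MF, 68.5 and 92.0 at HF, and 125 and 73.6 at LF. Its HF libraries were below both MF libraries, and its log2 change for HF against MF was -0.62 ± 0.30 (adjusted p = 0.948). Gins2, a GINS subunit, had 193 and 158 CPM at MF, 124 and 130 at HF and 155 and 98.5 at LF, with a log2 change for HF against MF of -0.46 ± 0.25 (adjusted p = 0.948).

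These adjusted p-values rest on a spread estimated over all 6 polysome libraries, the distant LF replicate among them. When HF and MF polysome libraries were fitted alone, 3 of 37 members were called, all lower at HF, beside 411 of 13243 genes called lower (3.1%). They were Pold1 (log2 change -0.77, adjusted p = 0.0150), Cdt1 (-0.69, adjusted p = 0.0164) and Lig1 (-0.62, adjusted p = 0.0415). When polysome LF replicate 2 was left out and all other libraries kept, the same 3 genes were called for HF against MF, and Gins2 with them (-0.46, adjusted p = 0.0492), beside 3.33% of 13790 genes called lower. The changes themselves were nearly the same size in all of these fits.

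Gins1, a subunit of the GINS complex, had the smallest p for HF against LF. Its CPM in polysomes was 17.7 and 15.6 at LF, 12.7 and 10.4 at MF and 8.69 and 10.0 at HF, so both LF libraries stood above the other 4, and its log2 change was -0.82 ± 0.26 (adjusted p = 0.257). Pcna had 573 and 761 CPM at LF, 511 and 447 at MF and 412 and 484 at HF, with a log2 change for HF against LF of -0.56 ± 0.20 (adjusted p = 0.286). Prim1 had 50.1 and 64.6 CPM at LF, 42.9 and 35.3 at MF and 30.2 and 39.9 at HF, with a log2 change of -0.70 ± 0.25 (adjusted p = 0.295). Again the LF libraries were above all others in both genes. Rfc5 had 85.1 and 75.0 CPM at LF, 69.1 and 59.8 at MF and 55.3 and 53.9 at HF, with a log2 change of -0.54 ± 0.20 (adjusted p = 0.301). Orc6, the smallest subunit of its complex, had 69.1 and 103 CPM at LF, 57.6 and 52.9 at MF and 58.7 and 65.2 at HF, with a log2 change for LF against MF of 0.63 ± 0.24 (adjusted p = 0.254). Mcm2 went the other way, with 191 and 146 CPM at LF, 258 and 221 at MF and 216 and 261 at HF, and a log2 change for LF against MF of -0.52 ± 0.21 (adjusted p = 0.274). Without LF replicate 2 these were 0.32 for Orc6 and -0.33 for Mcm2. Without polysome LF replicate 2, which leaves LF with 1 polysome library whose spread is taken from the others, 6 members were called lower for HF against LF, beside 7.4% of all genes. They were Gins1 (-0.92), Gins3 (-0.69), Lig1 (-0.64), Rfc5 (-0.64), Pola2 (-0.58) and Rpa2 (-0.48). When polysome LF replicate 1 was left out instead, Lig1 had 0.12 and Pola2 0.17, while the others listed kept their sign. The direction of Lig1 and Pola2 thus depended on which LF library was kept. Pcna (-0.35) and Prim1 (-0.51) were not among them, and LF against MF then gave 0 members.

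Translation efficiency (TE) was the polysome level of a gene divided by its total level, and a change in TE was tested as the interaction of fraction and dose over all 12 libraries. Its values lay close to the changes in polysome level. For LF against MF, 0 of 37 members were called, beside 34 of 14421 genes (0.236%), with 3 members and 2277 genes at an unadjusted p below 0.05. Between HF and MF, 0 members and 0 genes were called (0.0%), with 0 members and 599 genes at an unadjusted p below 0.05. For HF against LF, 0 members were called, beside 0.0971% of all genes, with 6 members and 2114 genes at an unadjusted p below 0.05. DESeq2 called 0, 0 and 1 member, the last being Gins1 (log2 change -0.76, adjusted p = 0.0478), among 632, 28 and 702 genes. The median log2 change in TE was 0.14, -0.20 and -0.24 over the members and 0.02, 0.00 and 0.00 over all genes. For LF against MF the members' median without polysome LF replicate 2 was 0.00, with 18 values above 0 and 19 below. For HF against LF it was -0.235 without that library. For HF against MF 32 of 37 members had a value below 0, and the origin recognition complex ran from -0.14 to 0.34.

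The members with the smallest p in TE, none of which passed, were for HF against LF Gins1 (log2 change -0.78 ± 0.24), Pcna (-0.65 ± 0.21), Prim1 (-0.69 ± 0.25) and Gins3 (-0.61 ± 0.23), with adjusted p-values of 0.168 to 0.265. For LF against MF they were Cdt1 (-0.77 ± 0.32), Orc6 (0.60 ± 0.25), Mcm2 (-0.50 ± 0.22) and Pold1 (-1.07 ± 0.48), with adjusted p-values of 0.288 to 0.320. Without LF replicate 2 they were -0.42, 0.28, -0.32 and -0.51. For HF against MF they were Cdt1 (-0.70 ± 0.32), Pole (-0.42 ± 0.23), Lig1 (-0.58 ± 0.33) and Cdc45 (-0.41 ± 0.25), each with an adjusted p of 0.982. Fitted on the 8 libraries of HF and MF alone, Cdt1 was called lower in TE (-0.69, adjusted p = 0.0485), beside 0.864% of 14243 genes called lower. The TE change of Orc3 for HF against LF was -0.22 without polysome LF replicate 1. Without replicate 2, which also leaves LF with 1 polysome library, some members were called for this comparison. Orc3 was higher (0.51), and the 6 others (Gins1, Gins3, Lig1, Pola2, Rfc5 and Rpa2) were lower, beside 8.57% of all genes called lower.

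The comparison of polysome with total mRNA at a fixed dose asked how much of each mRNA sat on several ribosomes relative to the average gene, and here the members differed widely. At MF, 13 of 37 members were higher in polysomes, beside 26.0% of all 14421 genes, and 7 were lower, beside 29.3%. At LF, 11 were higher (25.0% of all genes) and 6 lower (28.5%), and at HF 6 were higher (25.7%) and 11 lower (30.7%). The split at HF depended on the scaling, with 9 higher and 9 lower under DESeq2's size factors in place of TMM. The calls among all 14421 genes moved the same way, from 3707 higher and 4428 lower to 3978 and 4084. Without polysome LF replicate 2 24 members were called at LF, 25 at MF and 22 at HF, beside 62.7%, 68.9% and 69.2% of all genes. The median log2 ratio was 0.14, 0.16 and 0.00 over the members at LF, MF and HF, and -0.11, -0.05 and -0.12 over all genes. Without polysome LF replicate 2 the medians at LF were 0.20 over the members and -0.03 over all genes. Since calls cover more than 50% of all genes at each dose, a call alone does not set a member apart. Of the 54 calls, 25 were kept under all 18 alternatives and 22 were lost when some library was left out. The least stable were Prim1 at HF, kept under 4, Gins1 at HF under 5, Rrm1 at LF under 6, and Mcm2 at MF and Rpa2 at LF under 10 each.

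**Figure D4:**
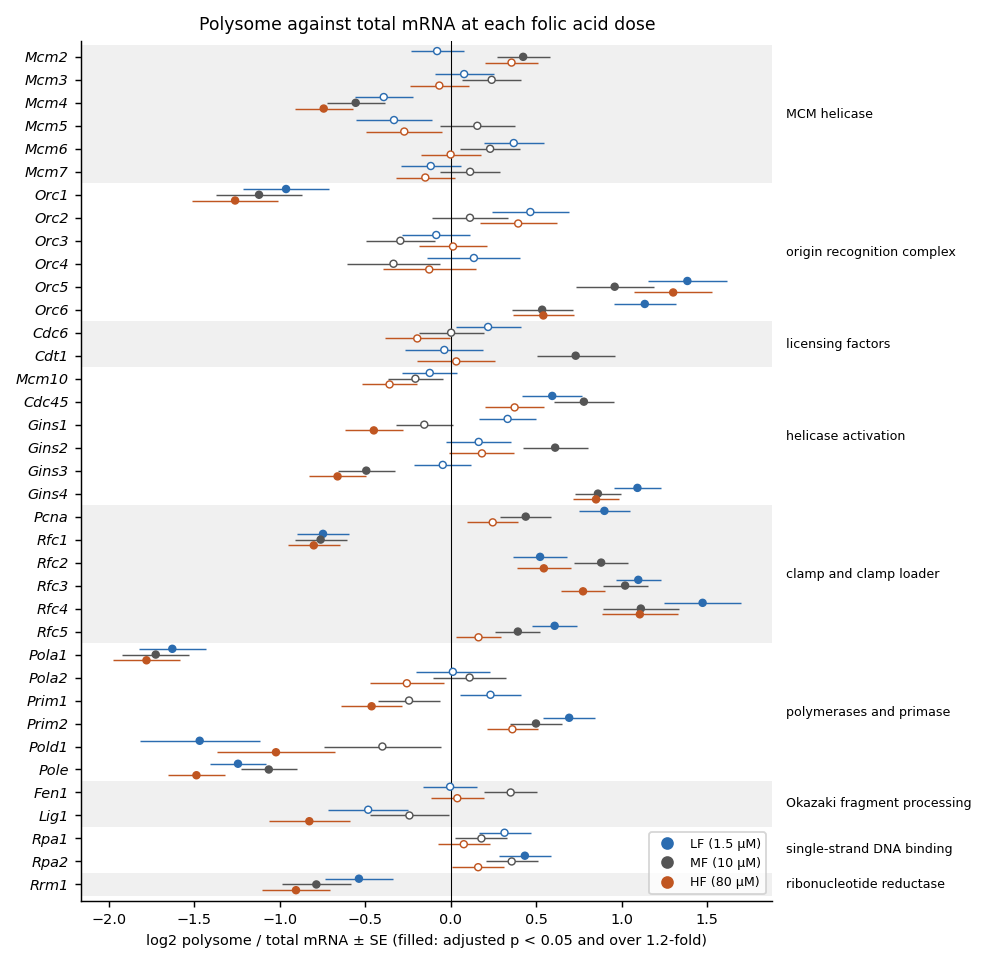
log2 ratio of polysome to total mRNA with its SE for the 37 members at LF (blue), MF (grey) and HF (orange), grouped by role; filled points passed the test. Within a complex the subunits part, as with Rfc4 (1.11 at MF) against Rfc1 (-0.76), Orc5 (0.96) against Orc1 (-1.12), and Prim2 (0.50) against Pola1 (-1.73).

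Subunits of the same complex parted. In the clamp loader the 4 small subunits and the clamp itself were higher in polysomes at MF and LF, whereas the large subunit Rfc1 was lower at all doses. Rfc4 had 32.0 and 33.4 CPM in total mRNA at MF and 75.1 and 66.2 in polysomes, a log2 ratio of 1.11 ± 0.22 (adjusted p = 0.0018), with 1.47 ± 0.22 at LF and 1.10 ± 0.22 at HF. Its LF polysome libraries held 68.2 and 119 CPM. Without polysome LF replicate 2 the highest LF ratio of any member was 1.03. Rfc3 had 47.2 and 46.9 CPM in total mRNA and 103 and 87.2 in polysomes at MF, a log2 ratio of 1.02 ± 0.13 (adjusted p = 0.000123), with 1.10 ± 0.13 at LF and 0.77 ± 0.13 at HF. Rfc2 had 61.4 and 62.8 CPM in total mRNA and 123 and 105 in polysomes at MF, a log2 ratio of 0.88 ± 0.16 (adjusted p = 0.000937). For each of these genes all polysome libraries lay above all total libraries. Rfc1 had 143 and 151 CPM in total mRNA and 85.0 and 88.3 in polysomes at MF, a log2 ratio of -0.76 ± 0.15 (adjusted p = 0.00177), and all its polysome libraries lay below all total libraries. Rfc5 and Pcna were called higher at LF (0.61 ± 0.13 and 0.90 ± 0.15) and MF (0.39 ± 0.13 and 0.44 ± 0.15), and at HF stood at 0.16 ± 0.13 and 0.24 ± 0.15 with adjusted p-values of 0.316 and 0.181. Rfc4 shares exonic bases with Eif4a2 on the opposite strand, Rfc2 with Lat2 and Rfc5 with Wsb2. The libraries kept strand, but whether the counting used it is not given in the sources used here, so these 3 values are uncertain. The same holds for Orc1, Orc2, Orc4, Orc6, Cdc45, Gins2, Mcm7, Pole, Fen1 and Lig1, which also overlap an exon on the other strand.

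In the origin recognition complex, Orc5 and Orc6 were higher and Orc1 lower in polysomes at every dose, while Orc2, Orc3 and Orc4 passed at none. Orc5 had 41.8 and 43.1 CPM in total mRNA and 83.4 and 81.5 in polysomes at MF, a log2 ratio of 0.96 ± 0.23 (adjusted p = 0.00483), with 1.38 ± 0.23 at LF, and it was called at HF too. Orc6 had log2 ratios of 1.13 ± 0.18, 0.53 ± 0.18 and 0.54 ± 0.18 at LF, MF and HF, the last with an adjusted p of 0.0245. Its call was kept under all 18 alternatives at LF, under 14 at MF, where it was lost without any 1 of the 4 MF libraries, and under 15 at HF, where it was lost without either total HF library or polysome HF replicate 2. The LF ratios without polysome LF replicate 2 were 0.93 for Orc5 and 0.82 for Orc6. Orc1 had 7.37 and 8.90 CPM in total mRNA and 4.62 and 2.88 in polysomes at MF, a log2 ratio of -1.12 ± 0.25 (adjusted p = 0.00349), with -0.96 ± 0.25 at LF and -1.26 ± 0.25 at HF. Exons of Orc5 overlap those of Gm15421 on the same strand, and those of Rpa1 overlap Gm47300, so reads of both could be split between the genes. The MCM subunits had log2 ratios between -0.74 and 0.42, and 4 of the 6 (Mcm3, Mcm5, Mcm6 and Mcm7) passed at no dose. Mcm4 was lower at MF (-0.56 ± 0.17, adjusted p = 0.0174) and HF (-0.74 ± 0.17, adjusted p = 0.00375), and Mcm2 was higher at MF (0.42 ± 0.15, adjusted p = 0.0391).

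Among the factors that load and activate the helicase, Gins4 was higher in polysomes at every dose. It had 24.1 and 25.1 CPM in total mRNA and 47.9 and 41.3 in polysomes at MF, a log2 ratio of 0.86 ± 0.14 (adjusted p = 0.000432), with 1.09 ± 0.14 at LF and 0.85 ± 0.14 at HF. Cdc45 was higher at LF (0.59 ± 0.17) and MF (0.78 ± 0.17), and Gins2 (0.61 ± 0.19) and Cdt1 (0.73 ± 0.23) at MF alone passed the test. At HF Cdt1 had a ratio of 0.03 ± 0.23 and Gins2 of 0.18 ± 0.19. Gins3 was lower at MF (-0.49 ± 0.17) and HF (-0.66 ± 0.17), and Gins1 at HF (-0.45 ± 0.17). Cdc6 and Mcm10 passed at no dose. Whether such a ratio differs between doses is the TE test given above, which no member passed.

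Among the polymerase subunits, Pola1 held the lowest ratio of all members at every dose. Pola1 had 97.6 and 107 CPM in total mRNA and 32.4 and 29.3 in polysomes at MF, a log2 ratio of -1.73 ± 0.20 (adjusted p = 5.87e-05), with -1.63 ± 0.20 at LF and -1.78 ± 0.20 at HF, while its partner Pola2 had 0.11 ± 0.21 at MF and passed at no dose. Prim2 was higher at LF (0.69 ± 0.15) and MF (0.50 ± 0.15), and Prim1 was lower at HF (-0.46 ± 0.18, adjusted p = 0.0476). Pold1 was lower at LF (-1.47 ± 0.35, and -0.91 without polysome LF replicate 2) and HF (-1.02 ± 0.35), and at MF had -0.40 ± 0.34 (adjusted p = 0.342). Its call at HF was kept under 12 of the 18 alternatives. It was lost with the effective length offset described below, with no low-count filter and without any 1 of the HF libraries. Pole had 104 and 107 CPM in total mRNA and 53.1 and 47.7 in polysomes at MF, a log2 ratio of -1.06 ± 0.16 (adjusted p = 0.000358), with -1.24 ± 0.16 at LF and -1.49 ± 0.16 at HF. Rrm1 was lower at all doses, with log2 ratios of -0.54 ± 0.20 at LF (adjusted p = 0.0428), -0.79 ± 0.20 at MF and -0.91 ± 0.20 at HF. The call of Rrm1 at LF was lost under 12 of the 18 other settings listed for that dose. Lig1 was lower at HF (-0.83 ± 0.23, adjusted p = 0.0122) and Rpa2 higher at LF (0.43 ± 0.15, adjusted p = 0.0344), while Fen1 and Rpa1 passed at no dose.

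The low ratio of Pole depends on how its length is counted. The mean effective length that RSEM estimated for Pole from the transcripts it assigned reads to was 6327 bases in the total libraries and 2161 in the polysome libraries. In TPM, which divides by that length, Pole therefore had 27.9 in total mRNA and 29.3, 31.7 and 22.5 in polysomes at LF, MF and HF. When the effective length of each library entered the edgeR fit as an offset, an alternative chosen after seeing the data, the log2 ratio of Pole was 0.46 ± 0.19 at LF, 0.41 ± 0.19 at MF and 0.00 ± 0.19 at HF, with adjusted p-values of 0.0598, 0.0842 and 0.995. The effective length was also shorter in polysomes, below 0.8 times that in total mRNA, for Mcm3 (2638 and 1642 bases), Mcm10 (3110 and 2108) and Pold1 (2762 and 2138), that is with Pole for 4 of 37 members, beside 4.65% of 14420 genes. It was longer by the same margin for Orc2 and Rpa1, that is 2 of 37 members, beside 6.12% of all genes. With the offset Mcm3 was higher in polysomes at every dose (0.82, 0.92 and 0.58 at LF, MF and HF). Mcm10 and Rpa1 changed sign at every dose, Mcm10 from -0.12, -0.21 and -0.36 to 0.33, 0.56 and 0.14, of which the value at MF was called (adjusted p = 0.0144), and Rpa1 from 0.31, 0.18 and 0.08 to -0.08, -0.13 and -0.23. Of the 11 members called in the same direction at every dose, 10 were called at every dose with the offset too (Orc5, Orc6, Gins4, Rfc2, Rfc3, Rfc4, Orc1, Rfc1, Pola1 and Rrm1), and Pole was the exception.

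Members with a long coding sequence tended to have the low ratios. Of the 15 members with an annotated coding sequence over 2000 bases, 5 had a positive log2 ratio at MF, with a median of -0.29, and of the 22 shorter ones 18 did, with a median of 0.41. All tested protein-coding genes had medians of -0.57 (4083 genes over 2000 bases) and 0.29 (8915 shorter genes). Across the 37 members Spearman's rho of coding length with the log2 ratio was -0.75 at LF, -0.59 at MF and -0.61 at HF, and across 12998 protein-coding genes it was -0.49, -0.43 and -0.40. With the effective length offset the members' rho was -0.58, -0.39 and -0.45. These values describe genes measured in the same libraries, which are not independent replicates. The longest coding sequences were those of Pole (6849 bases), Pola1 (4395) and Rfc1 (3435). Gins3 (648 bases, -0.49) and Mcm2 (2712 bases, 0.42) lay away from the trend in opposite directions.

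**Figure D5:**
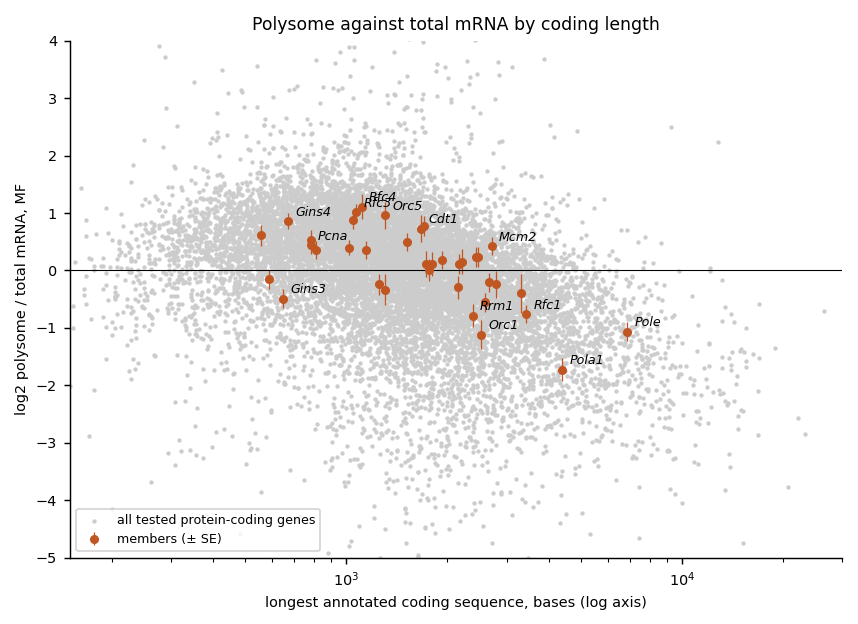
log2 ratio of polysome to total mRNA at MF against the longest annotated coding sequence of each gene (log axis), with the 37 members in orange (bars, SE) and 12998 tested protein-coding genes in grey, of which 115 fall outside the axes. Small subunits such as Gins4 and Rfc4 lie above 0, and Pola1, Pole and Rfc1 at the right lie below it.

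The neighbours of the machinery, 110 genes in 7 lists, are given for comparison. In total mRNA 0 of 110 were called for LF against MF (0.00719% of all genes) and for HF against MF (0.0863%), and for HF against LF (1.79%) 1 was called. That was Cdc7, the kinase that fires loaded origins, with 36.3 and 33.0 CPM at LF, 38.8 and 43.2 at MF and 44.4 and 40.9 at HF, and a log2 change of 0.29 ± 0.07 (adjusted p = 0.0392). In polysome mRNA 0 of 110 were called at any dose, and the median log2 change was 0.12, -0.17 and -0.29 for LF against MF, HF against MF and HF against LF. The medians that involve LF include polysome LF replicate 2 and were not taken without it. In TE 1 of 110 was called, for HF against LF, beside 0.0971% of all genes. It was Ccna2, the cyclin A of S phase, which was lower at HF than at LF (log2 change -1.28 ± 0.15, edgeR adjusted p = 0.0363). In polysomes Ccna2 had 257 and 259 CPM at LF, 140 and 135 at MF and 99.4 and 112 at HF, without overlap between doses, while its total CPM was 278 to 312. Among the 20 mitosis genes none had a positive polysome value for HF against MF, with a median of -0.36, and none was called. Of the 10 genes for thymidylate and deoxynucleotide supply, 9 had a value below 0 for HF against MF in polysomes (median -0.11), and none was called.

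Between polysome and total mRNA at MF, 16 of the 110 neighbours were higher and 44 lower, beside 26.0% and 29.3% of all genes, against which the counts of each list are to be read. Among 24 other replisome subunits, 3 were higher and 7 lower, with Rnaseh2a, a subunit that removes RNA primers, at 1.25 ± 0.16, Atad5, which unloads the clamp, at -2.45 ± 0.20, Top2a, a DNA topoisomerase, at -2.02 ± 0.17, and Clspn, a fork and checkpoint mediator, at -1.47 ± 0.14. Among 17 regulators of licensing and firing, 4 were higher and 7 lower, with Topbp1 at -1.84 ± 0.12, Ccne2 (a cyclin E) at -2.60 ± 0.30 and Ccna2 at -1.10 ± 0.11. Of 19 genes listed with the E2F and pocket proteins, 1 was higher (Lin37, 1.09 ± 0.17) and 11 lower, with E2f7, a repressor, at -1.28 ± 0.15 and E2f3 at -0.81 ± 0.13. Of the 10 genes for deoxynucleotide supply, 4 were higher and 3 lower, with Dctd, the dCMP deaminase, at 1.42 ± 0.13, Nme1, a nucleoside diphosphate kinase, at 1.22 ± 0.11 and Dck, deoxycytidine kinase, at -0.64 ± 0.15. Of 10 chromatin assembly genes, 1 was higher (Tonsl, 1.08 ± 0.15) and 2 lower, and of 10 checkpoint genes 2 were higher and 4 lower, with the kinase Atr at -2.06 ± 0.22. Of 20 mitosis genes, 1 was higher and 10 lower, with the proliferation marker Mki67 at -3.90 ± 0.28.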

How the data were processed

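Total and polysome poly(A) mRNA of mouse NSCs in 3 folic acid doses was measured by paired-end RNA-seq (12 libraries). The authors trimmed reads with Trim Galore and made gene tables with Bowtie2 2.2.9 and RSEM 1.3.0 on mm10; the annotation release and the strand setting are not given in the sources used here. The deposited files hold RSEM's estimated counts (expected counts, not normalized), the authors' TPM (a share of transcripts, length-corrected), FPKM (not used) and effective lengths. Gene identifiers were matched to GENCODE M21 (GRCm38), 42462 of 43432 (97.77%). TPM compares genes within the text; CPM compares libraries.

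Expected counts were rounded and fitted with edgeR 4.0.16 in R 4.3.3 (TMM, filterByExpr, quasi-likelihood F-test, Benjamini-Hochberg over all genes tested), in 1 fit of the 6 total libraries, 1 of the 6 polysome libraries and 1 of all 12 for TE and for polysome against total. Calls needed an adjusted p below 0.05 and a fold change over 1.2, the thresholds of the study's methods. No stranding or depth correction was added, and intervals cover 95%. The step was tested on simulated data. Alternatives were DESeq2 1.42.0, its size factors, no low-count filter, only the compared libraries, the replicate number as a block, leaving out each library and an effective length offset.

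The members and the other gene lists were chosen with earlier results of these data known. Every member is named with its level; members called, or else the 4 with the smallest p, are named per comparison (where over 8 were called, the 8 with the smallest p and the largest change in each role), and in the other lists at most 4 called genes. Orc2, Orc3 and others named for the sign of their value, and members called only under an alternative, were named after their values were seen. Replicate numbers were not taken as pairs, since same-numbered deviations correlated at -0.23 to 0.21 over 15 pairs of groups. Replicates of a group differed by more than sampling noise (chi-square per degree of freedom 2.39 to 109), so none was a repeat deposit.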

Additional observations from a re-analysis of the deposited data

Results flagged for a closer look

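Ccna2 was singled out because its TE differed between doses by the interaction test, with a log2 change of -1.28 for HF against LF (edgeR, adjusted p = 0.0363). The call was kept under 7 of 18 other settings, with adjusted p-values from 1.21e-10 (DESeq2) to 0.342 (without total HF replicate 1), while the value stayed between -1.36 and -1.19. Without polysome LF replicate 2 it was -1.26 (adjusted p = 0.000248), and with only the compared libraries -1.28 (adjusted p = 0.327). No member of the replication machinery met this condition.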

How the results depend on the processing

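In total mRNA no member was called under any alternative. The member counts with a library left out are not printed here, since such a fit leaves 1 library in a group. Without polysome LF replicate 2, calls among all genes also rose in every polysome and TE comparison. Member counts from such fits alone therefore do not set the members apart from other genes. In the polysome and TE comparisons, where the standard fit called 0 members, DESeq2 called 1 for polysome LF against MF and 1 for TE HF against LF, and the compared libraries alone called 3 for polysome HF against MF and 1 for TE HF against MF. Leaving out a library called 0 to 19 for polysome LF against MF, 0 to 4 for HF against MF and 0 to 12 for HF against LF, and for TE 0 to 18, 0 to 2 and 0 to 11. The highest values for LF against MF and HF against LF arose without polysome LF replicate 1, which leaves the distant replicate 2 as the only LF polysome library; without replicate 2 the counts were 0, 4 and 6 for polysome mRNA and 0, 2 and 7 for TE. For polysome against total mRNA, members called ranged over 12 to 26 at LF, 12 to 25 at MF and 11 to 23 at HF with a library left out, with the lowest MF counts without total MF replicates 1 (13) and 2 (12) or polysome MF replicate 1 (13), the lowest HF count without total HF replicate 2 (11) and the highest LF count without polysome LF replicate 1 (26). With only the compared libraries 8 were called at LF (17 in the standard fit), 24 at MF and 22 at HF, beside 24.9%, 71.4% and 71.4% of all genes. The cause was not tested. The replicate number as a block gave 17, 19 and 15 members at LF, MF and HF, beside 53.1%, 54.7% and 56.0% of all genes, and 0 members elsewhere. In edgeR it ended the calls of Mcm2 at MF (adjusted p = 0.0505), Prim1 (0.0517) and Gins1 (0.057) at HF and Ccna2 in TE (0.054). The numbers share no source that the labels give.

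Of 134 gene results named, 11 changed sign under some alternative. The ratios of Mcm10 and Rpa1, given with values for the offset alone, are not among the 134. With the offset both changed sign at every dose. With the effective length offset Pole had 0.46 (LF) and 0.41 (MF), which follows from the shorter length estimated in polysomes, and Gins2 had -0.132 at HF. With the replicate block Rfc4 had -0.01 for polysome HF against MF. With a library left out the ratio of polysome to total ranged over -0.442 to 0.026 for Cdc6 and -0.009 to 0.085 for Cdt1 at HF and -0.033 to 0.251 for Pola2 at MF. Polysome HF against MF ranged over -0.192 to 0.48 for Orc1 and -0.11 to 0.12 for Rfc4, polysome HF against LF over -0.64 to 0.121 for Lig1 and -0.582 to 0.174 for Pola2, and TE HF against LF over -0.216 to 0.51 for Orc3, the last 3 turning without polysome LF replicate 1. Of the named values called in the standard fit, only those of Pole changed sign. The turned HF against LF results of Lig1, Pola2 and Orc3 were called only without polysome LF replicate 2. Mcm10 at MF, negative in the standard fit, was called higher with the offset. Orc5, Gins4, Rfc3, Rfc4 and Pola1 were called under all 54 combinations of dose and alternative. The call of Cdc7 was kept under 5 of 12 alternatives. With 2 libraries a group and the spread seen in polysomes, no member's interval for a polysome dose change lay within 1.2-fold, so such changes could not be bounded.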
